A study of Homo sapiens with 2 samples.

Results

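Exonic ATF1 peaks that lay deep inside genes are described here. They are the peaks of the deposited table that the authors classed as exonic and whose summit was more than 10 kb from both listed ends of the assigned gene, and there were 493 of them among 15064 listed peaks, or 3.27% (exact 95% interval 2.99 to 3.57%). The rule used the class and the distance to the listed gene ends, one of which is the listed start, so shares at annotated starts are not independent of it, while tags, fold enrichment and sequence were not used. The study mapped binding of ATF1 in HCT116, an established human colon carcinoma cell line, grown with 10% serum and fixed with 1% formaldehyde. It has 2 libraries, 1 from chromatin immunoprecipitation (ChIP) with 5 µg of an antibody labelled as directed against 3xFlag-ATF1, and 1 of input DNA from the same line without antibody. The labels do not say how a Flag-tagged ATF1 came to be in the cells, or its level beside their own ATF1. The antibody label names the tagged protein, and whether the cells' own ATF1 occupies the same places was not measured. The values are those of the ChIP library alone, and no table of the input was analysed here. Without replicates no test between conditions was possible, so intervals cover counting error only and no p-value is given.

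ATF1 belongs to the CREB family of transcription factors, which pair through a leucine zipper. Its dimers bind the cAMP response element (CRE), a palindrome that in its complete form reads TGACGTCA, and the family is best known from promoters rich in CpG close to transcription starts. Many long genes have several such starts, and the first exon of a shorter transcript can lie far inside the gene as a whole. The outer ends of a gene therefore do not show every place at which its transcription can begin.

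Of these peaks 152 of 477 (31.9%, interval 27.7 to 36.3%) lay over an annotated start of their own gene, although the gene's listed ends were more than 10 kb away. With the summit itself in such a window the share was 17.8% (85 of 477, interval 14.5 to 21.6%). A start was taken as a RefSeq promoter window, from 250 bases before to 50 bases after a start. By present RefSeq ends 134 of the 152 were still more than 10 kb inside the gene, 5 were between 1 and 10 kb from an end, and 13 were within 1 kb of an end or outside the gene. Another 7 peaks overlapped a window of a different gene only, and 318 overlapped none. The remaining 16 lie on a chromosome for which windows were not used here, and are left out of these shares. Of the 477 genes 410 had at least 1 window in the table, which is not complete, and over these the share was 37.1% (interval 32.4 to 42.0%). For all listed peaks, treated in the same way, the own-start share was higher, at 49.6% (7193 of 14514). Over genes with a window it was 65.0% for all listed peaks. Among 1362 intronic peaks equally deep in their genes the share was 13.1% (interval 11.4 to 15.1%), and among 4247 exonic peaks within 1 kb of a gene end it was 73.7% (interval 72.35 to 75.02%). The 3 sets are defined by class and end distance, the bases just after a start are exonic by definition, and gene ends include the outer start, so the order of these shares is partly set by the selection.

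The sequences at 8 of these starts are shown because they let the motif matches be read against the annotated start under the peak, and a match is a description of letters, not a bound site. Each is given 5′ to 3′ in the direction of the gene, ends no later than the last base before the start, and is copied from the RefSeq promoter table on GRCh38.p14. Capitals mark the complete CRE or, where there is none, its 5-base core TGACG on either strand, read as TGACG or CGTCA. By present RefSeq ends the TXNL1 summit lies outside its gene and the CCT6B summit 98 bp from an end, so these 2 starts are not inner ones there. For each peak only the window of the assigned gene nearest the summit was searched, and windows of other genes were not. Among those searched, only the windows of TXNL1 and APTX held a complete CRE. The other 6 are the windows with the core alone under the peaks of highest fold enrichment, and they and APTX were chosen after the values were seen.
TXNL1, chr18:56638672-56638759, minus strand: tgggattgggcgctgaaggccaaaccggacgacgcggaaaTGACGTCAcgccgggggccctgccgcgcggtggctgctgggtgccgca
APTX, chr9:33001629-33001682, minus strand: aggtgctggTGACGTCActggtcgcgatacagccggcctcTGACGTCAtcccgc
ZSCAN31, chr6:28336135-28336207, minus strand: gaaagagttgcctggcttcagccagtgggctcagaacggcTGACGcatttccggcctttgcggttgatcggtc
PTP4A1, chr6:63572428-63572479, plus strand: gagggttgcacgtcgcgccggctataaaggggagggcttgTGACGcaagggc
SLC25A26, chr3:66220934-66221000, plus strand: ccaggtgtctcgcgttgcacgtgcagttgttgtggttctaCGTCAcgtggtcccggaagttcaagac
SYNPO2, chr4:118888744-118888828, plus strand: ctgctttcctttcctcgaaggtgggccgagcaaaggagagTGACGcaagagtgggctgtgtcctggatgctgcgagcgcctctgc
MAP4K5, chr14:50532577-50532661, minus strand: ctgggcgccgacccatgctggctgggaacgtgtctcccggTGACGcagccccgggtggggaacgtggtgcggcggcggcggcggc
CCT6B, chr17:34961469-34961553, minus strand: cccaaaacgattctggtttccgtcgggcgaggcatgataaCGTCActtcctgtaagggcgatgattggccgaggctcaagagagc

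In TXNL1 119 bases separated the CRE from the start, and APTX had 2 CREs, the nearer one separated from the start by 6 bases. TXNL1 encodes a thioredoxin-like protein bound to the proteasome, and its peak held 387 tags at 21.96-fold enrichment with the summit 112 bp before the start. APTX encodes aprataxin, which repairs abortive DNA ligation ends, and its peak held 55 tags at 10.45-fold with the summit 41 bp after the start. Of this pair, the window with more CREs was thus under the peak with fewer tags. In the 6 windows with the core alone, the core nearest the start was separated from it by between 7 bases (PTP4A1) and 65 bases (SYNPO2).

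Few of the searched start windows of the assigned genes under the peaks held the complete CRE. It was found in 2 of 152 windows under deep exonic peaks (1.32%, interval 0.160 to 4.67%), against 648 of 34961 windows of all genes on the chromosomes used (1.85%) and 133 of 3130 windows under exonic peaks at gene ends (4.25%, interval 3.57 to 5.02%). The 5-base core, which also matches within the complete CRE, was in 43 of the 152 windows (28.3%, interval 21.3 to 36.2%), in 24.5% of all windows and in 40.4% of windows under exonic gene-end peaks. Both strands were searched. Peaks over windows with the core had a median of 8.27-fold and 246 tags, against 6.77-fold and 163 tags for the 109 without it, with overlapping quartile ranges (5.85 to 11.8 and 4.76 to 8.67-fold). No match says only that these letters are not in the window, and the peaks themselves reach beyond it.

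The windows under the peaks were rich in CpG. The ratio of observed to expected CpG had a median of 0.807 (quartiles 0.656 and 0.918) in the 152 windows under deep exonic peaks, 0.580 in all windows and 0.854 under exonic gene-end peaks. Of the 152, 127 (83.6%, interval 76.7 to 89.1%) reached a ratio of 0.6, against 48.95% of all windows. The 192 other annotated windows of the same genes, which were not under the listed peak, had a median ratio of 0.391. In the 102 genes that had such other windows, the one under the peak held more CpG than the mean of the others in 77 (75.5%, interval 66.0 to 83.5%). Because the table gives 1 peak per gene, it does not show whether the other windows were bound. CpG content also went with tags, and the median ratio was 0.881 under peaks of 150 or more tags, 0.671 under those with at least 50 but fewer than 150 and 0.672 under the 15 with fewer than 50.

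**Figure D1:**
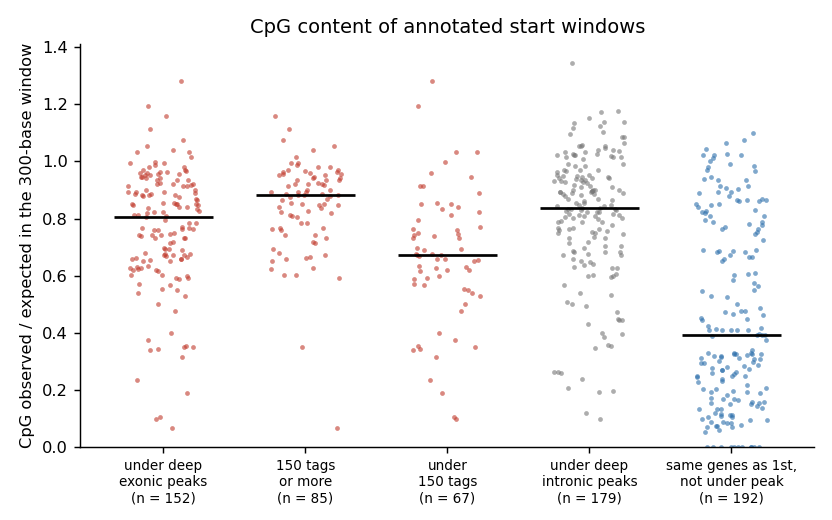
Ratio of observed to expected CpG (vertical axis) in 300-base RefSeq start windows, 1 point per window, with horizontal bars at the medians; the 3 left columns are the windows under deep exonic peaks and the same windows by tags, and the fourth those under deep intronic peaks. The windows under the peaks have a median of 0.807, and the other windows of the same genes, at the right, a median of 0.391.

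Summits lay close to the overlapped starts. Measured in the direction of transcription, the 152 summits were a median of 18 bp downstream of the start (quartiles 52.5 bp upstream and 114.75 bp downstream), and 125 (82.2%) were within 250 bp. In the 179 deep intronic peaks over a start the median was 70 bp upstream, with 134 summits upstream and 45 downstream, whereas 65 of the exonic summits were upstream and 87 downstream. The exonic class was part of the rule and the bases just after a start are exonic by definition, so this contrast is not independent of the rule. Of the 152 genes 109 had 2 or more windows in the table, against 90 of the 254 genes without an overlap that had a window. A gene with more windows has more places for an overlap, and a gene with an inner start mostly has an outer one too. The contrast in window number is therefore partly set by the selection.

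**Figure D2:**
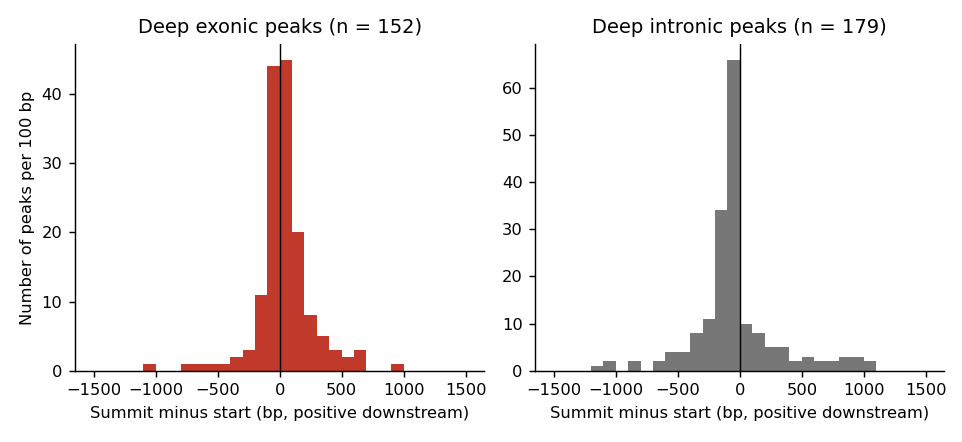
Distance of the summit from the nearest overlapped start of the assigned gene in bp, negative before and positive after the start, as the number of peaks per 100 bp for deep exonic (left) and deep intronic peaks (right). In both panels most summits lie within 250 bp of the start.

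Peaks over a start of the assigned gene held more tags than the remaining deep exonic peaks, with similar median fold enrichment. Tags are the sequenced fragments or reads counted in a peak, and fold enrichment is the authors' ratio to a background that they do not specify. The 152 peaks at a start of the assigned gene had 180 tags at the median (quartiles 86.5 and 313.5, from 25 to 798) and a median length of 1522 bp. The 318 peaks without a window had 47 tags at the median (quartiles 31 and 87, from 17 to 1142) and 1047 bp. Of these 318, 254 were in genes with a window in the promoter table, and the others could not be placed at an own start. The intervals of the 2 medians, 138 to 228 and 43 to 52 tags, do not overlap, while median fold enrichment was 6.99 and 6.81 with overlapping intervals. The share at 10-fold or more was 19.7% (interval 13.7 to 27.0%) at an own start and 9.43% (interval 6.46 to 13.2%) without a window. The same pattern held in deep intronic peaks, with medians of 208 tags at a start and 35 without. Exonic peaks within 1 kb of a gene end had a median of 213 tags.

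**Figure D3:**
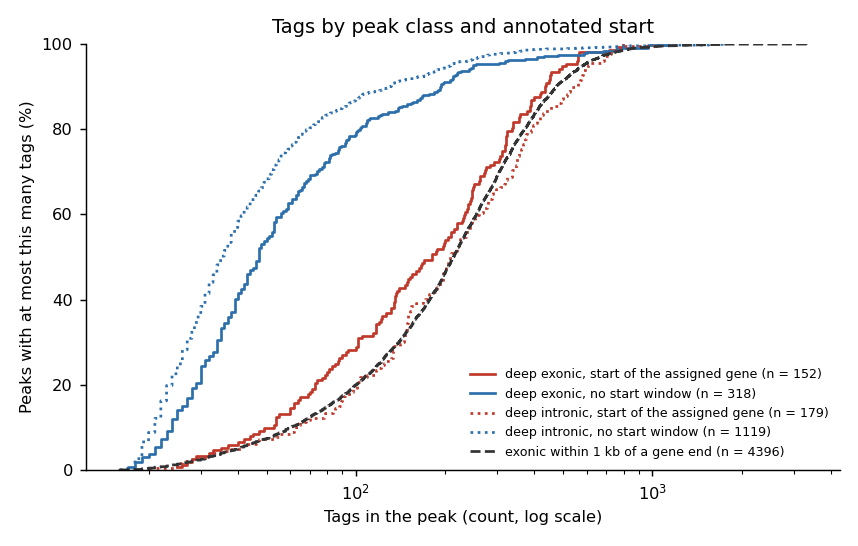
Cumulative share of peaks (%) against tags per peak (count, log scale) for deep exonic peaks (solid), deep intronic peaks (dotted) and exonic peaks within 1 kb of a gene end (dashed), with peaks at a start of the assigned gene in red and peaks without a window in blue. The red and dashed curves run together to the right, with medians between 180 and 213 tags, and the blue curves lie to the left, with medians of 47 and 35.

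The share of peaks at a start went up with tags, and the exonic values stand here beside the intronic ones, which the class in the rule partly sets apart. With fewer than 50 tags it was 7.98% of 188 deep exonic peaks and 1.66% of 782 deep intronic ones. With 50 tags or more but fewer than 150 it was 33.3% of 156 against 14.7% of 334, and with 150 or more 63.9% of 133 (interval 55.1 to 72.1%) against 47.6% of 246 (interval 41.2 to 54.0%). Peaks with more tags were also longer, and a longer peak meets a window more easily (Spearman correlation of tags and length 0.888 across the 493 peaks, which share a library and a caller). The summit itself lay in a window of the assigned gene in 2.66%, 15.4% and 42.1% of deep exonic peaks in the 3 ranges of tags.

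Only 66 of the 493 peaks (13.4%, interval 10.5 to 16.7%) reached 10-fold enrichment, against 23.9% of all listed peaks and 13.1% of deep intronic peaks. Of these 66, 30 lay at a start of the assigned gene, 30 overlapped no window, 1 was at a start of another gene and 5 were on chromosome 8. The 30 at an own start had a median of 147.5 tags, and the 30 without a window a median of 36, with 20 of these below 50 tags. All 493 peaks together had a median of 6.84-fold (quartiles 5.29 and 8.60, range 3.03 to 54.16) and 65 tags, and all listed peaks 6.97-fold and 162 tags. Fold values of small peaks were also coarse, since 69.6% of the 194 members with fewer than 50 tags had a value, to 2 decimals, that at least 20 peaks of the table shared, against 40.7% of the 135 with 150 or more.

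**Figure D4:**
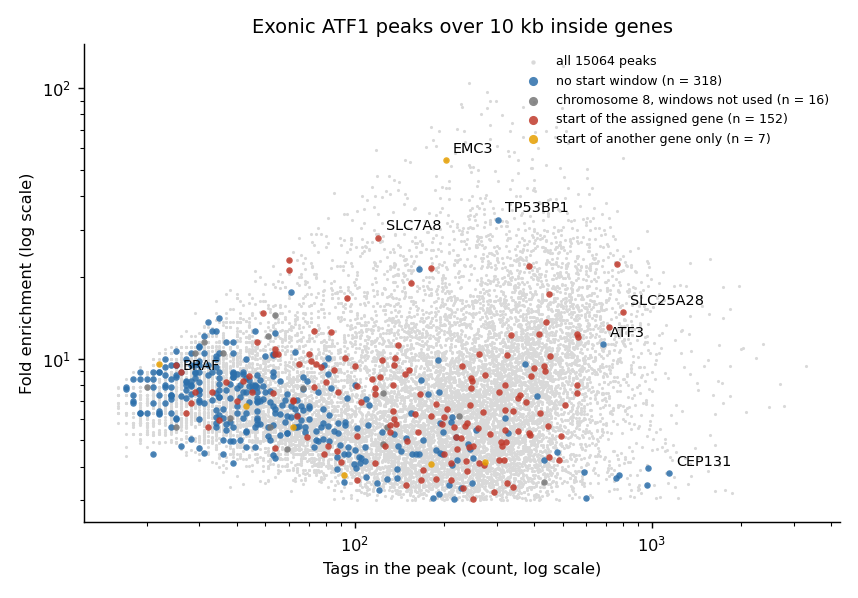
Fold enrichment against tags per peak, both on log scales, for all 15064 peaks (grey) and the 493 deep exonic peaks, coloured by the annotated start they overlap. Most peaks without a window (blue) lie at the left with fewer than 100 tags, and EMC3, TP53BP1 and SLC7A8 stand highest among the deep exonic peaks.

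The strongest deep exonic peaks were in EMC3 and TP53BP1, and 8 of the 12 strongest lay over a start of the assigned gene. At 10-fold or more this was 30 of 66, and for the deep exonic peaks as a whole 152 of 477 (31.9%). Of the 8, the summit in TXNL1 lay outside the gene by present RefSeq ends, and that in RPP30 28 bp from an end. The highest was in EMC3, a subunit of the membrane protein insertion complex of the endoplasmic reticulum, with 54.16-fold and 202 tags (exact Poisson interval 175.1 to 231.9, chr3:9986381-9987398). It lay 24180 bp from the nearer end of EMC3, and the window under it belonged to EMC3-AS1, an antisense RNA gene. TP53BP1, a factor of DNA double-strand break repair, followed with 32.71-fold and 303 tags (chr15:43492600-43493702), 17379 bp inside the gene and over no window. Both peaks were narrow, at 1018 and 1103 bp, and the nearest annotated start of the assigned gene was 24258 bp away from the EMC3 summit and 17510 bp away from the TP53BP1 summit. For each of these genes the promoter table, which is not complete, held 1 start, so a nearer one may be missing from it.

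Transporter genes held 2 of the strongest peaks over a start of the assigned gene. SLC7A8, an exchanger of neutral amino acids, had 28.03-fold and 120 tags, 29154 bp from the nearer end of the gene and with the summit 56 bp before 1 of its 4 annotated starts. SLC25A26, the mitochondrial carrier of S-adenosylmethionine, had 21.69-fold and 180 tags at 87454 bp from the nearer end, with the summit 63 bp after a start. SLC25A28, the iron importer mitoferrin-2, had 14.91-fold with 798 tags, the most of any peak in the group over an own start, in a peak that also covered the start of SLC25A28-DT. It lay 10354 bp from the nearer listed end, so just past the limit of the rule.

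Signalling genes among the strongest were PTP4A1, a prenylated tyrosine phosphatase (22.44-fold, 760 tags), and MAP4K5, a STE20-type kinase (17.43-fold, 450 tags). The PTP4A1 summit lay 77 bp before a start and also 77 bp from an end of another protein-coding gene, LOC128125822. The MAP4K5 summit lay 44 bp before a start and 469 bp from an end of its neighbour ATL1. SH3BP5, a regulator of RAB11 and of BTK, had 17.69-fold from 61 tags (interval 46.7 to 78.4) and overlapped no window. Nuclear proteins included ZSCAN31, a SCAN domain zinc finger protein, with 23.16-fold from 60 tags, and MEF2C, a MADS box transcription factor, with 16.73-fold from 94 tags, 52 bp before 1 of its 7 starts. RPP30, a subunit of RNase P, had 21.29-fold from 60 tags with the summit 28 bp after a start. Among actin-associated proteins, SYNPO2 had 19.04-fold and 155 tags at a start, and SHROOM3 21.41-fold and 165 tags without one, 151036 bp inside the gene.

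Of the 5 peaks with the most tags 4 were long and of low fold enrichment, and the other was that of SLC25A28 (798 tags, 2554 bp, 14.91-fold, at an own start). CEP131, a centriolar satellite protein, had 1142 tags in a peak of 14867 bp, INF2, a formin, 970 tags in 11294 bp, LAMA5, a laminin chain, 964 tags in 12411 bp, and KIF26A, a kinesin-like protein, 777 tags in 11399 bp. The fold enrichments of these 4 were between 3.41 (LAMA5) and 3.95 (INF2), and none of the 4 overlapped a window. In all, 10 of the 493 peaks were longer than 5 kb, with 3.05 to 5.30-fold enrichment and 386 to 1142 tags, and 2 of them lay at a start of the assigned gene. One of these was GNAS, which encodes the stimulatory G protein subunit upstream of cAMP (452 tags, 4.35-fold, named after its value was seen). Leaving aside length, 45 peaks without a window had 150 or more tags, and for 13 of these the table held no window of the gene at all.

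The peaks farthest inside genes were mostly at starts. KAZN, a desmosome-associated protein, had its peak 519224 bp from the nearer end (167 tags, 3.57-fold), and CDH18, a cadherin, 515310 bp (44 tags, 8.64-fold). WDPCP, a planar polarity effector (252479 bp, 47 tags, 11.55-fold), and CPNE4, a copine (250563 bp, 73 tags, 12.64-fold), came next, although CPNE4 lies 4467 bp from a present RefSeq end and would not be a member by those ends. All 4 summits were within 139 bp of an annotated start of the same gene, and the WDPCP peak also covered a start of MDH1. KALRN was the exception (235717 bp, 42 tags, 7.53-fold), with its nearest start 115770 bp farther along the gene. By distance, 27.4% of 226 peaks between 10 and 20 kb inside lay at an own start, 33.7% of 163 between 20 and 50 kb, 30.6% of 49 between 50 and 100 kb, and 51.3% of 39 farther in (interval 34.8 to 67.6%). Median tags stayed between 62.5 and 73.5 in these ranges.

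Peaks at starts lay toward the 5′ part of their genes and the remaining exonic peaks toward the 3′ part. With 0% at the 5′ end and 100% at the 3′ end, the 152 summits at an own start had a median place of 34.6% (quartiles 18.6 and 51.1%), and 109 (71.7%, interval 63.8 to 78.7%) were in the first 50%. The 254 without a window whose gene had a known strand had a median of 63.4% (quartiles 46.5 and 80.6%), with 31.9% in the first 50% (interval 26.2 to 38.0%). Deep intronic peaks without a window had a median of 51.8%, with 47.2% in the first 50% (interval 43.7 to 50.7%). Where exons and annotated starts lie along these genes was not measured, and its part in this difference was not tested. COL6A3, a collagen VI chain (33 tags, 12.63-fold, at 88.9%), CLASP1, a microtubule-binding protein (31 tags, 10.53-fold, at 90.4%), and SEMA5A, an axon guidance protein (32 tags, 13.68-fold, at 83.6%), are examples with few tags near the 3′ end.

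**Figure D5:**
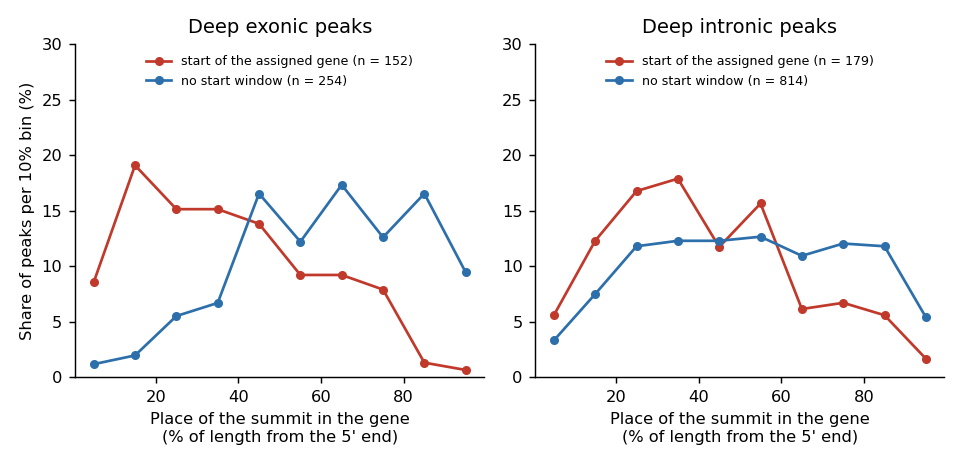
Share of peaks (%) in each 10% of gene length from the 5′ end, for deep exonic (left) and deep intronic peaks (right), with peaks at a start of the assigned gene in red and peaks without a window in blue. Among deep exonic peaks the red line is highest in the first 50% of the gene and the blue line in the second, with medians of 34.6% and 63.4%.

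CREB and cAMP targets and immediate early genes formed a list of 48, of which the peak table names 47. Of these 47, 3 had a deep exonic peak (6.38%, interval 1.34 to 17.5%, against 3.27% of all genes in the table). Over 20 kb the share was 12.5% of 24 (interval 2.66 to 32.4%, against 5.54%). Each gene name has 1 listed peak, so in all the lists a gene whose listed peak lies elsewhere was not counted. ATF3, a stress-induced member of the ATF family, had 683 tags and 11.32-fold (chr1:212606301-212610165), in a peak of 3865 bp with its summit 6326 bp before the nearest annotated start in the promoter table. PDE7B, a cAMP phosphodiesterase, had 21 tags and 7.89-fold. BDNF, a neurotrophin, had 143 tags and 4.58-fold, with the summit 1302 bp after the nearest of its 5 starts. None of the 3 overlapped a start window of its gene. The promoter table is not complete, so it may lack a start nearer to these summits, that of ATF3 included. Among phosphodiesterase and A-kinase anchor genes 3 of 37 (8.11%) had a deep exonic peak, all 37 being over 20 kb. PDE11A (147 tags, 8.79-fold) and AKAP12, a scaffold for protein kinase A (64 tags, 6.13-fold), were at an own start, and PDE7B was not.

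BRAF, the RAF kinase, had 25 tags (interval 16.2 to 36.9) and 8.58-fold, 90003 bp from the nearer end and 89507 bp from its annotated start. It ranked 125 of the 493 by fold, in the range of tags in which 7.98% of these peaks lay at a start. It was the single deep exonic peak among 26 colorectal cancer genes in the table (3.85%, interval 0.0973 to 19.6%). KSR1, a scaffold of the same cascade (22 tags, 8.95-fold), was the other one among 33 genes of the RAS, RAF and MAP kinase list. The share of that list was 6.06% (interval 0.743 to 20.2%), against 3.27% of all genes. The WNT list had 1 of 33 (3.03%), the receptor-like PTK7 (42 tags, 8.80-fold), and the TGF-beta list 0 of 26, against 3.27% of all genes. Over 20 kb, the length at which such a peak becomes possible, the WNT and TGF-beta lists had 1 of 25 and 0 of 22 (interval up to 15.4%), against 5.54%. There the colorectal cancer list had 4.55% of 22 and the RAS, RAF and MAP kinase list 6.90% of 29.

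Long structural genes had deep exonic peaks most often among the 16 lists. The list of cytoskeletal and giant scaffold genes had 9 of 46 (19.6%, interval 9.36 to 33.9%), with CLASP1, CLASP2 (25 tags, 9.47-fold, 17 bp from a start) and MYO18A, a myosin (25 tags, 9.47-fold), at the top. The list of extracellular matrix and integrin genes had 6 of 37, or 17.6% of the 34 over 20 kb, led by COL6A3 and by ITGA5, the fibronectin receptor subunit (31 tags, 12.11-fold), and with ADAMTS15, a matrix protease (69 tags, 8.28-fold), after them. Of the 9 and 6, only 2 and 1 lay at an own start. All genes in the table gave 493 of 15064 (3.27%) and, over 20 kb, 493 of 8905 (5.54%), so 14 of the 16 lists were above the first value and 13 above the second. Gene length beyond 20 kb was not matched, and the lists hold many long genes.

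The neuronal and axon guidance list had 5 of 53 (9.43%, against 3.27% of all genes), led by SEMA5A, SEMA4D (24 tags, 7.35-fold) and PLXNA4 (24 tags, 5.58-fold). None of the 5 was at an own start, against 30.8% of all 493 members. The list of histone and chromatin modifiers had 4 of 58 (6.90%), again with none at a start. They included the demethylase KDM5C (35 tags, 10.53-fold), ASXL2 (24 tags, 9.49-fold) and the methyltransferase EHMT1 (75 tags, 7.53-fold). Among 36 transcription factors known for inner promoters 3 had a deep exonic peak (8.33%). That of ESR1, the oestrogen receptor (33 tags, 7.55-fold), was at a start, while those of RUNX1 (35 tags, 8.92-fold) and RORA (27 tags, 7.98-fold) were not. Cadherins and adhesion genes had 3 of 30 (10.0%). Of these TJP1, a tight junction scaffold (312 tags, 4.76-fold), lay 20 bp before a start, and NRXN2 (63 tags, 6.50-fold) and DCHS2 (92 tags, 4.46-fold) at none. The list of intestinal epithelial genes included VIL1, the brush border protein villin (39 tags, 8.92-fold, at no start window). Markers of other cell types had 1 of 16 (6.25%), CDH5 of endothelium (46 tags, 5.61-fold). Among genes over 20 kb, the interval of each of these list shares included the 5.54% of all genes.

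Ends of other protein-coding genes were near few of the summits. In all, 12 of 493 summits (2.43%, interval 1.26 to 4.21%) came within 1 kb of where another protein-coding gene begins or ends. The share was 14.8% over all listed peaks (2229 of 15064) and 22.0% over exonic peaks within 1 kb of a gene end. For deep intronic summits it was 4.19% (interval 3.21 to 5.36%). With the ends of all annotated genes, non-coding ones included, it was 55 of 493 (11.2%) for deep exonic summits. Among deep exonic peaks with a score in the upper 50% it was 7.14% for protein-coding ends. Of the 12, 10 were also at a start of the assigned gene. CCT6B, a chaperonin subunit (49 tags, 14.74-fold), lay 178 bp from an end of ZNF830, and TSGA10, a sperm tail protein (391 tags, 8.67-fold), 192 bp from an end of C2orf15. Which of the 2 genes such a peak belongs to cannot be told from the table. In 3 cases, looked up after the values were seen, a peak covered a microRNA hairpin, MIR4741 in RBBP8 (439 tags, 13.63-fold), MIR6802 in PPP6R1 (249 tags, 4.31-fold) and MIR6090 in ETS1 (156 tags, 4.46-fold).

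The listed gene ends decided some members. Set against the present RefSeq ends of the same gene, 462 of the 490 matched members were still more than 10 kb inside, 11 were within 1 kb of an end, 11 between 1 and 10 kb, and 6 lay outside the gene. TXNL1 was 1 of the 6, and RPP30 lay 28 bp and CCT6B 98 bp from a present end. These 3 peaks also overlapped a start window of the same gene. At the limit of the rule, the last exonic peaks outside were those of GGA2 (9982 bp, 54 tags, 7.70-fold), CORO2A (9989 bp, 21 tags, 6.84-fold) and CNNM2 (9997 bp, 53 tags, 5.66-fold). The first inside were those of TRIM9 (10005 bp, 561 tags, 7.99-fold), WSCD2 (10019 bp, 36 tags, 6.05-fold) and KCTD19 (10034 bp, 27 tags, 8.24-fold).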

How the data were processed

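The submitters' processing notes name CASAVA, Bowtie2, bedtools and the build hg38. For the caller, its control and the annotation, nothing is given in the sources used here. The authors' deposited table holds, per the file headers, tags (whole-number counts per peak), a fold enrichment (a ratio to an unspecified background, lowest value 3), a score (lowest value 50) and a class for each peak. It has 15064 peaks, 1 per gene name and none overlapping another, and 1 line without a position was left out. Library depth is unknown.

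Positions, distances, overlaps and motif matches were computed in Python 3.11.15 (scipy 1.17.1, pandas 2.3.3), and the steps were checked on simulated peaks. Of the members' gene names 469 matched a current RefSeq symbol, 21 an older name and 3 none. Start windows and strand came from the RefSeq promoter table (GRCh38.p14, the same assembly as hg38), and those of chromosome 8 were not used. Where several windows of a gene lay under a peak, the one nearest the summit was used. Intervals on shares are exact (Clopper-Pearson) and on medians binomial, both at 95%.

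The members and the 16 gene lists were chosen with earlier results of these data known. Genes named were the 12 highest by fold, the 5 with the most tags, the 5 deepest, the 10 strongest at an own start, the 5 strongest near another gene, 3 on each side of the limit, up to 3 per list, BRAF and ATF3; some of these genes and lists are not reported here. Alternatives changed the distance, thresholds, gene ends, windows and motif.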

Additional observations from a re-analysis of the deposited data

How the results depend on the processing

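The number of deep exonic peaks, 493, was 889 with a limit of 5 kb, 258 with 20 kb and 140 among peaks with a score in the upper 50%. With peaks of at least 5-fold the median fold was 7.53, the median tags 53 and the share at 10-fold or more 17.0%; a fold threshold raises the first and last by its construction. Among peaks of higher score the median fold was 7.81, the median tags 235.5 and the share at 10-fold or more 29.3%. The share near an end of another gene was 7.14% among them. Their share over a start window of any gene was 70.6%, against 33.3% for all deep exonic peaks. That last share was 27.3% with a limit of 5 kb and 19.3% when the summit itself had to lie in the window. The share near an end of another gene was 5.27% with a 5 kb window and 11.2% with the ends of all annotated genes. The motif share was 28.3% for the 5-base core and 3.95% for the AP-1 element (TGACTCA or TGAGTCA), a setting chosen after seeing the data, as were the shares limited to windows of the assigned gene. Causes of the other shifts were not tested. Leaving out the longest peaks, requiring the whole peak to be over 10 kb inside, or using RefSeq gene ends left the 6 values on the peaks within 1.5 times or within their intervals. No paired analysis was possible because there is 1 ChIP library. Depth is unknown, so a gene without a listed deep exonic peak is not shown to be unbound there.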
